A study of Mus musculus with 2 samples.

Results

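Hemidesmosomes are the rivets that fix the lowest cells of a layered epithelium to the basement membrane, the thin sheet of matrix under it. Genes of this attachment were read in single cells of the mouse cervix: Col17a1, Col7a1, Itga6, Itgb4, Lama3, Lamb3, Dst, Plec and Bcam. The 9 genes were chosen by symbol among the 31053 genes in the deposited tables, and all 9 were found there. Cells came from C57BL6/129 females, 7 to 8 weeks old, whose ovaries had been removed (ovariectomy) in both groups and who had recovered for 2 weeks. Control mice were left untreated over 15 days. Progesterone mice were given estradiol (E2) under the skin in corn oil, 100 µg on each of 2 days. A 25 mg pellet followed, whose release of hormone over 21 days amounts to about 1 mg daily. Each group is 1 library of cells pooled from 9 mice, so there is no replicate error and no test between groups. All intervals below are exact 95% intervals for counting error only. Estradiol, oil, injection and pellet set the groups apart along with progesterone, and their parts cannot be told apart. The study was set up to follow olfactomedin 4 in luminal cells, and the attachment genes were read from the same 2 libraries.

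In a hemidesmosome the integrin pair encoded by Itga6 and Itgb4 crosses the membrane together with the transmembrane collagen of Col17a1. Inside the cell, the plakins encoded by Plec (plectin) and Dst (dystonin, whose epithelial form is known as BPAG1) tie these to keratin filaments. Outside, the integrin holds laminin-332, a matrix protein whose chains include those of Lama3 and Lamb3, and the collagen of Col7a1 forms anchoring fibrils that run from there into the stroma. Bcam encodes a surface receptor for a laminin chain found in most basement membranes. In squamous epithelia, such as that of the outer cervix, these structures lie at the base of the basal layer, while the luminal cells of the canal have no classical hemidesmosomes.

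On GRCm38, in the GENCODE M21 annotation, Col17a1 is at chr19:47646344-47692094, Col7a1 at chr9:108953586-108984875, Itga6 at chr2:71745616-71858416 and Itgb4 at chr11:115974709-116008412. Lamb3 is at chr1:193207699-193343878, Dst at chr1:33908225-34308661, Plec at chr15:76170974-76232574 and Bcam at chr7:19756131-19771016. All are protein-coding, and Plec shares 205 exon bases with Parp10 on the same strand, so that some reads there could belong to either gene. Start regions of Col17a1, Col7a1 and Lamb3 are shown because the first of these genes stood higher in progesterone than in control resting basal cells and the other two stood lowest there. They are RefSeq sequences of GRCm38.p6, 250 bases before to 50 bases after the annotated start, 5′ to 3′ on the gene's own strand. RefSeq start regions matched 5 of the 9 genes, at 7 start sites. Col17a1 lies on the minus strand at chr19:47691993-47692292, Col7a1 on the plus strand at chr9:108953336-108953635, and the second of the Lamb3 start sites on the plus strand at chr1:193301993-193302292. Capitals mark matches to any of 4 motifs searched on both strands, and no matches overlapped in these sequences.
Col17a1: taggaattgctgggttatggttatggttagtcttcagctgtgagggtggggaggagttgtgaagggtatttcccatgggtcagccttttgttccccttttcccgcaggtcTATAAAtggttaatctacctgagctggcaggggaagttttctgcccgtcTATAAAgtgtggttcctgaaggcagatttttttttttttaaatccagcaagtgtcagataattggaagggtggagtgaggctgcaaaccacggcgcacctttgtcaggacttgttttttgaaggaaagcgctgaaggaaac
Col7a1: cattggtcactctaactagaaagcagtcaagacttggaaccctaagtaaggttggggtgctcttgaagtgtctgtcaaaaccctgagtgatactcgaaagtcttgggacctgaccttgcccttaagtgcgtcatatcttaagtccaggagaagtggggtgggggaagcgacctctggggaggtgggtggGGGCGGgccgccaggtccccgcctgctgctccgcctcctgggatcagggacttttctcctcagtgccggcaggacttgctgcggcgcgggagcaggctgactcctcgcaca
Lamb3: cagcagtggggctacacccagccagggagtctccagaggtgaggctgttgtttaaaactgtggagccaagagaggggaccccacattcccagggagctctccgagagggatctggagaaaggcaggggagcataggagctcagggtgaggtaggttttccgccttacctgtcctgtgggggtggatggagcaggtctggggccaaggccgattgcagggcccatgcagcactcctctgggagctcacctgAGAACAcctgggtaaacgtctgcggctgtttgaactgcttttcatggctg
The Col17a1 region held the TATA box letters TATAAA at positions -140 and -91, counted from the start site as 0, and 13.6% of 32851 RefSeq start regions of that length held them. The Col7a1 region held a GC box, GGGCGG, at position -61, as did 35.7% of all regions. The Lamb3 region held the steroid receptor half-site letters TGTTCT on its minus strand at position 0, as did 19.0% of all regions. The AP-1 letters TGANTCA were in none of the 7 regions and in 7.81% of all. Of the start regions not printed, the first one of Lamb3 held no match, 1 of the pair at Dst held GC boxes, and the Bcam region held a GC box.

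After filtering, 4579 control and 8541 progesterone cells remained, with medians of 3733 and 4151 UMIs (unique molecular identifiers, each counting 1 captured RNA molecule). The 9 genes and their pathway took no part in the clustering. Clusters were named from marker genes and are called resting basal-like, cycling-like, suprabasal-like and luminal-like, written here without the ending. Resting basal cells numbered 538 in the control and 2957 in the progesterone library, and the control ones were shallow, with a median of 1418 against 4314 UMIs. Cycling cells numbered 265 and 299, in 1 cluster. Suprabasal cells numbered 481 and 1197, and different clusters held them: 367 of the control cells were in cluster 12, led by Krt16 and Krt6b, and 1189 of the progesterone cells in cluster 1, led by Krt10. Luminal cells numbered 223 and 1883, the control ones mostly in cluster 13 and the progesterone ones in clusters 2 and 5. A further 51.2% of control and 11.6% of progesterone cells stayed unnamed, and 12 analysed barcodes occurred in both libraries. All 6 basal markers were read in each of these classes, and their summed level in resting basal cells was 11164 CPM (UMIs per 1000000 UMIs of the class) in the control and 11935 CPM in the progesterone library. The same sum was 57670 CPM in control suprabasal cells and 16359 CPM in progesterone ones, mostly Krt14. Neutrophil-like cells, which should lack most of these genes, are given as a background of free RNA, and macrophage-like cells held more of some of the genes. The neutrophil-like medians of 581 and 776.5 UMIs lie far below those of the epithelial classes, so the comparison is made in UMIs per cell and not in CPM.

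**Figure D1:**
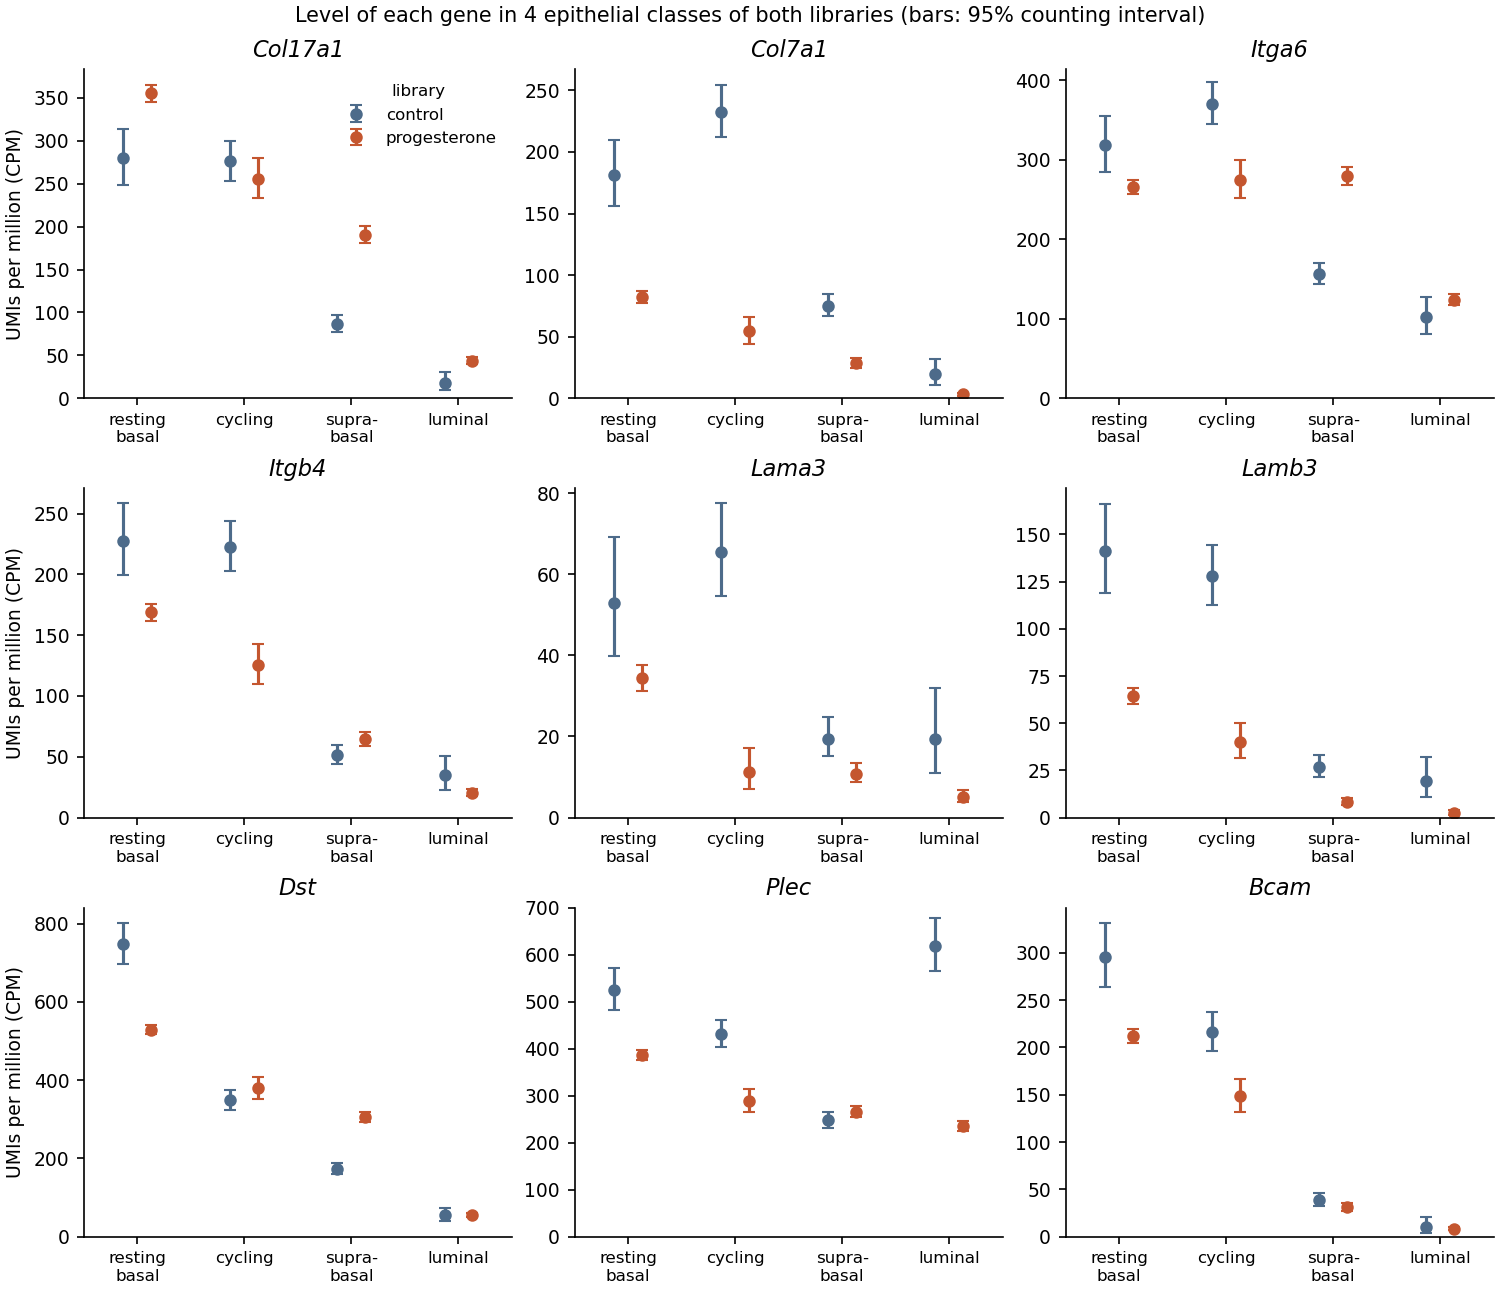
Level of each of the 9 genes in CPM (vertical axes, each from 0) in resting basal, cycling, suprabasal and luminal cells of the control (blue) and progesterone (orange) libraries, with 95% counting intervals. Levels of 8 genes stood lowest in luminal cells in both libraries, while Plec in control luminal cells reached 619 CPM, its highest level in these classes.

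Layers were compared first, within each library. In CPM, all 9 genes of control mice were at least 1.5-fold lower in suprabasal than in resting basal cells. Of the 4249 genes with at least 100 UMIs in the sums compared, 29% were that much lower. The median log2 ratio of the 9 was -1.70, against -0.15 over all genes. Per cell, Itga6 (1.14 against 0.60 UMIs), Plec (1.80 against 1.00) and Col7a1 (0.55 against 0.34) stood higher in suprabasal cells there. Col17a1 and Lama3 did too, with overlapping intervals. Bcam stood lower, as did Itgb4, Lamb3 and Dst with overlapping intervals. Median depths were 7160 suprabasal and 1418 resting basal UMIs. At equal depth all 9 were lower in suprabasal cells, Itga6 at 183 against 315 CPM and Plec at 279 against 471. In progesterone mice 7 of 9 were lower by that rule, against 11.8% of all genes, and the median was -1.38 against -0.01. Luminal cells were lower than resting basal cells in 7 of 8 genes that had 100 UMIs in the control (18.2% of all genes) and in 9 of 9 with progesterone (15.6% of all genes). In cycling cells 1 of 9 genes was lower than in resting basal cells in the control (16.1% of all genes) and 3 of 9 with progesterone (13.8% of all genes). The latter count depends on the setting: it was 8 with clusters at resolution 0.5 and under a stricter cell filter, and 1 at equal depth.

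Among the membrane receptors, Itga6 was the least restricted to the basal layer. Its level in the control was 319 CPM in resting basal, 371 in cycling, 157 in suprabasal and 102 in luminal cells. With progesterone it was 265, 275, 279 and 124 CPM in the same order. Suprabasal and resting basal cells thus differed by a ratio of 0.49 [0.43 to 0.57] in the control and 1.05 [1.00 to 1.11] with progesterone. Its cycling level was 1.16 [1.02 to 1.33] of the resting basal one in the control and 1.04 [0.94 to 1.14] with progesterone. Its partner Itgb4 kept a steeper profile. Itgb4 was 227, 223, 51.3 and 35.0 CPM in the control and 169, 125, 64.7 and 20.3 CPM with progesterone. In suprabasal cells it stood at 0.23 [0.18 to 0.28] of the resting basal level in the control and 0.38 [0.35 to 0.42] with progesterone. Control cells of suprabasal cluster 1, the cluster that holds nearly all progesterone suprabasal cells, had 261 CPM of Itga6 and 76.2 CPM of Itgb4, and the unnamed control cluster 7 had 275 and 64.5 CPM. A high Itga6 beside a low Itgb4 was thus read in some control cells too, and not in progesterone cells alone. Itga6 also pairs with Itgb1, which in suprabasal cells was at 0.34 [0.27 to 0.42] of its resting basal level in the control and 0.81 [0.74 to 0.87] with progesterone.

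Col17a1 was 279, 276, 86.2 and 18.1 CPM in resting basal, cycling, suprabasal and luminal cells of the control, and 355, 255, 190 and 44.1 CPM with progesterone. Its suprabasal level was 0.31 [0.26 to 0.36] of the resting basal one in the control and 0.54 [0.51 to 0.57] with progesterone. The receptor Bcam had the sharpest step of the 9 from basal to suprabasal cells of the control. Bcam was 296, 216, 38.7 and 10.4 CPM in the control and 212, 148, 31.2 and 8.7 CPM with progesterone, a suprabasal level of 0.13 [0.11 to 0.16] and 0.15 [0.13 to 0.17] of the resting basal one. Per cell, progesterone suprabasal cells had 0.21 [0.18 to 0.24] UMIs of Bcam, luminal cells 0.044 [0.035 to 0.054] and neutrophil-like cells 0.034 [0.019 to 0.056]. The suprabasal level thus lay above that of neutrophil-like cells, and the luminal one had an interval that overlaps theirs. Macrophage-like cells of that library had 0.28 [0.23 to 0.34], so the suprabasal level did not exceed every non-epithelial class.

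The plakins differed from each other. Dst was 748, 348, 173 and 54.4 CPM in the control and 529, 380, 306 and 54.7 CPM with progesterone, again highest in resting basal cells. In CPM it was the single gene lower in cycling than in resting basal control cells, at 0.47 [0.42 to 0.52]. Its log2 value of -1.10 lay between -1.29 and -0.34 over other ways of forming the classes and missed 1.5-fold in 5 of them. Per cell, Dst was higher in the cycling control cells, at 2.68 [2.48 to 2.88] against 1.42 [1.32 to 1.52] UMIs. The median depths there were 7517 and 1418 UMIs. Plec was 525, 432, 248 and 619 CPM in the control and 386, 289, 266 and 235 CPM with progesterone. In CPM, control luminal cells thus had the highest level of Plec among the 4 epithelial classes, 1.18 [1.04 to 1.34] of the resting basal one. Progesterone luminal cells were at 0.61 [0.58 to 0.64]. Per cell, Plec in the control was highest in cycling cells, at 3.32 [3.10 to 3.54] UMIs. Luminal cells had 2.14 [1.96 to 2.34] and resting basal cells 1.00 [0.91 to 1.08]. Plectin links keratin to several kinds of junction and to other filaments, and is not confined to hemidesmosomes. The control ratio was below 1 when the libraries were clustered apart (log2 -0.63), with per-cell marker gates (log2 -0.21) and with totals that left out the most abundant genes (log2 -0.16).

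Lama3, Lamb3 and the anchoring fibril collagen had their highest levels among the 4 classes in resting basal or cycling cells. Lama3 was 52.9, 65.4, 19.5 and 19.4 CPM in the control and 34.3, 11.2, 10.8 and 5.1 CPM with progesterone. Lamb3 was 141, 128, 26.9 and 19.4 CPM in the control and 64.2, 40.0, 8.3 and 2.6 CPM with progesterone. In progesterone cells Lama3 was lower in cycling than in resting basal cells, at a ratio of 0.33 [0.20 to 0.51]. Col7a1 was 181, 232, 75.4 and 19.4 CPM in the control and 82.0, 54.4, 28.5 and 3.3 CPM with progesterone. Its highest level was thus in cycling cells of the control but in resting basal cells of the progesterone library. Per cell, luminal cells had 0.067 [0.038 to 0.111] UMIs of Col7a1 in the control and 0.016 [0.011 to 0.023] with progesterone, against 0.012 [0.0032 to 0.030] and 0.016 [0.0063 to 0.032] in neutrophil-like cells. The luminal level lay above that of neutrophil-like cells in the control, and with progesterone it did not. The control interval overlapped that of macrophage-like cells, at 0.026 [0.0085 to 0.061].

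**Figure D2:**
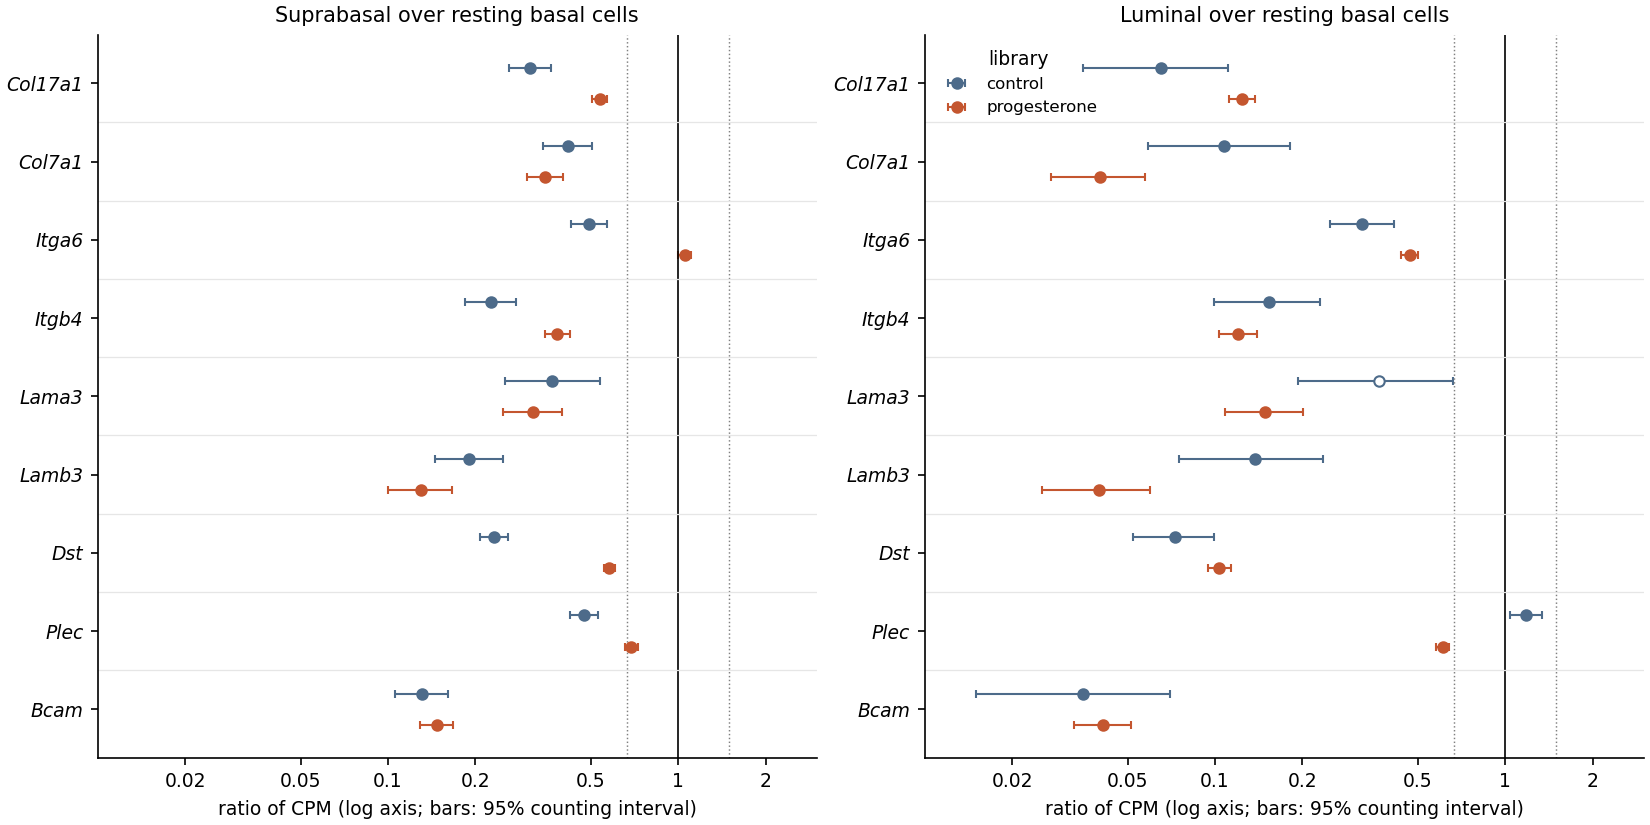
Ratio of CPM of suprabasal (left) and luminal (right) over resting basal cells for each gene, control in blue and progesterone in orange, on a log axis with 95% counting intervals; dotted lines mark 1.5-fold, and the open point has under 100 UMIs. Bcam and Lamb3 lie furthest left among suprabasal values, Itga6 with progesterone lies at 1.05, and Plec in control luminal cells lies at 1.18.

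Progesterone and control cells of the same class were compared next. In resting basal cells Col7a1, Lamb3 and Lama3 were at least 1.5-fold lower with progesterone, the matrix side of the attachment, and 0 of the 9 were that much higher. Of 8581 genes compared there 13.5% were lower and 8.81% higher. The median log2 ratio of the 9 was -0.48, against -0.15 over all genes. Col7a1 stood at 0.45 [0.39 to 0.53] of the control level and Lamb3 at 0.45 [0.38 to 0.55]. Lama3 stood at 0.65 [0.49 to 0.88], from 54 control UMIs. Col17a1 went the other way, at 1.27 [1.13 to 1.44], but its log2 ratio was -0.00 in place of 0.34 when the unnamed cluster 11 was counted as resting basal. Itga6, Itgb4, Dst, Plec and Bcam lay between 0.71 and 0.83, short of 1.5-fold, and the ratios of Itgb4, Dst and Bcam passed 1 under some settings. Col7a1 was past 1.5-fold under every setting tried (log2 -1.61 to -0.80), while Lamb3 missed it with clusters at resolution 2 (log2 -0.50), with a stricter cell filter (log2 -0.44) and with per-cell marker gates (log2 -0.51). Cd151, a membrane partner of the integrin, stood at 1.02 [0.80 to 1.33]. All these ratios are in CPM. Per cell, Col7a1 was 0.34 [0.30 to 0.40] UMIs in the control and 0.37 [0.35 to 0.39] with progesterone. Lamb3 was 0.27 [0.23 to 0.32] and 0.29 [0.27 to 0.31], and Lama3 0.10 [0.075 to 0.13] and 0.16 [0.14 to 0.17]. The lower levels of Col7a1, Lamb3 and Lama3 thus hold in CPM and not per cell, where the control cells were shallower.

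Cells of equal depth gave the same order as CPM for the collagens. After each cell was thinned to 2000 UMIs, which left out 365 control and 224 progesterone cells, Col7a1 was read in 35.8% [28.7 to 43.5] of control and 15.99% [14.6 to 17.4] of progesterone resting basal cells. Col17a1 was read in 39.3% [32.0 to 47.0] and 51.0% [49.1 to 52.9]. Lamb3 was read in 18.5% [13.0 to 25.1] and 13.6% [12.3 to 14.9], with overlapping intervals. Lama3 was read in 5.8% [2.8 to 10.4] and 7.2% [6.3 to 8.3], so its lower level over all cells was not seen at equal depth. Without thinning, Col7a1 was read in 25.8% of control and 29.0% of progesterone cells, a share taken at unequal depth that goes against the CPM and is given for completeness. Among neutrophil-like cells, at medians of 581 and 776.5 UMIs, 1.18% of control and 1.58% of progesterone cells had a UMI of Col7a1.

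In cycling cells the matrix genes differed most. Col7a1 stood at 0.23 [0.19 to 0.29] of the control level, Lamb3 at 0.31 [0.24 to 0.41] and Lama3 at 0.17 [0.10 to 0.27]. Itgb4 was lower too, at 0.56 [0.48 to 0.66]. These are 4 of the 9 genes, where 15.4% of 4357 genes were lower and 10.9% higher, and no member was higher. Plec stood at 0.67 [0.60 to 0.74] and Bcam at 0.69 [0.59 to 0.80], just short of 1.5-fold. Col17a1 at 0.93 [0.82 to 1.05] and Dst at 1.09 [0.98 to 1.21] had intervals that include 1. Here both libraries were of similar depth, with medians of 7517 control and 5881 progesterone UMIs, but basal markers summed to 34671 CPM in the control and 13281 CPM with progesterone. Their part in the result was not tested.

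Suprabasal cells had 3 genes higher and 3 lower with progesterone. Col17a1 stood at 2.21 [1.95 to 2.51], Itga6 at 1.78 [1.62 to 1.96] and Dst at 1.77 [1.62 to 1.94] of the control level. Col7a1 stood at 0.38 [0.32 to 0.45], Lamb3 at 0.31 [0.22 to 0.43] and Lama3 at 0.56 [0.40 to 0.77]. Itgb4 was at 1.26 [1.06 to 1.504], Plec at 1.07 [0.99 to 1.16] and Bcam at 0.81 [0.65 to 1.00]. Of all 7551 genes compared, 34.5% were higher and 10.9% lower, so a higher value is common in this class. With the pathway genes used for clustering, Col7a1 and Lamb3 were short of 1.5-fold (log2 -0.32 and -0.41), and so they were with the stricter cell filter (log2 -0.51 and -0.50). The cells of the 2 libraries came from different clusters, and within cluster 1 alone the higher values were smaller: Col17a1 at 1.45 [1.11 to 1.92], Dst at 1.17 [0.97 to 1.43] and Itga6 at 1.07 [0.89 to 1.31]. Of the lower ones, Col7a1 at 0.25 [0.19 to 0.35] and Lamb3, from 17 control and 67 progesterone UMIs, at 0.21 [0.12 to 0.39] were further from 1 there. Lama3 was not, at 0.95 [0.39 to 2.99] from 5 and 87 UMIs.

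Luminal cells gave few UMIs for most of the 9 genes, and 5 had the 100 needed. Of these, 2 were lower and 1 was higher with progesterone. Plec was lower with progesterone at 0.38 [0.34 to 0.42] and Itgb4 at 0.58 [0.39 to 0.90], where 12.9% of 8039 genes were lower. Plec was also read in 62.6% [54.5 to 70.2] of control and 37.9% [35.5 to 40.3] of progesterone luminal cells at equal depth. With the libraries clustered apart, the log2 ratio of Plec was -0.20 in place of -1.40. Col17a1 was higher at 2.43 [1.43 to 4.49], from 14 control UMIs, where 22.1% of genes were higher. Per cell, luminal cells had 0.063 [0.034 to 0.105] UMIs of Col17a1 in the control and 0.22 [0.20 to 0.24] with progesterone, against 0.021 [0.0083 to 0.043] and 0.063 [0.042 to 0.091] in neutrophil-like cells. The progesterone level was thus above that of neutrophil-like cells, while the control interval overlaps theirs. With progesterone the luminal interval overlapped that of fibroblast-like cells, at 0.17 [0.11 to 0.27]. It lay below macrophage-like cells, at 0.48 [0.42 to 0.56]. Whether the luminal level of Col17a1 with progesterone lies above free RNA thus depends on the class taken as background, and was not tested. Most of the progesterone UMIs came from cluster 2, with 69.7 CPM of Col17a1 and 262 CPM of Krt14, against 15.1 and 168 CPM in cluster 5 and 70.0 and 918 CPM in neutrophil-like cells. Itga6 stood at 1.21 [0.97 to 1.54] and Dst at 1.01 [0.73 to 1.41]. Per cell, both genes and Itgb4 stood higher in luminal than in neutrophil-like cells of either library, with intervals that do not overlap. Against macrophage-like cells of the progesterone library, luminal cells had less Itgb4 (0.10 against 0.22) and less Dst (0.27 against 0.84). Itga6 stood at 0.62 in luminal and 0.49 in macrophage-like cells. Basal markers summed to 7890 CPM in control luminal cells and 1230 CPM in progesterone ones, and their part in the lower values was not tested. Col7a1, Lama3 and Lamb3 had 15 control UMIs each, too few to be compared, and Bcam had 8.

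**Figure D3:**
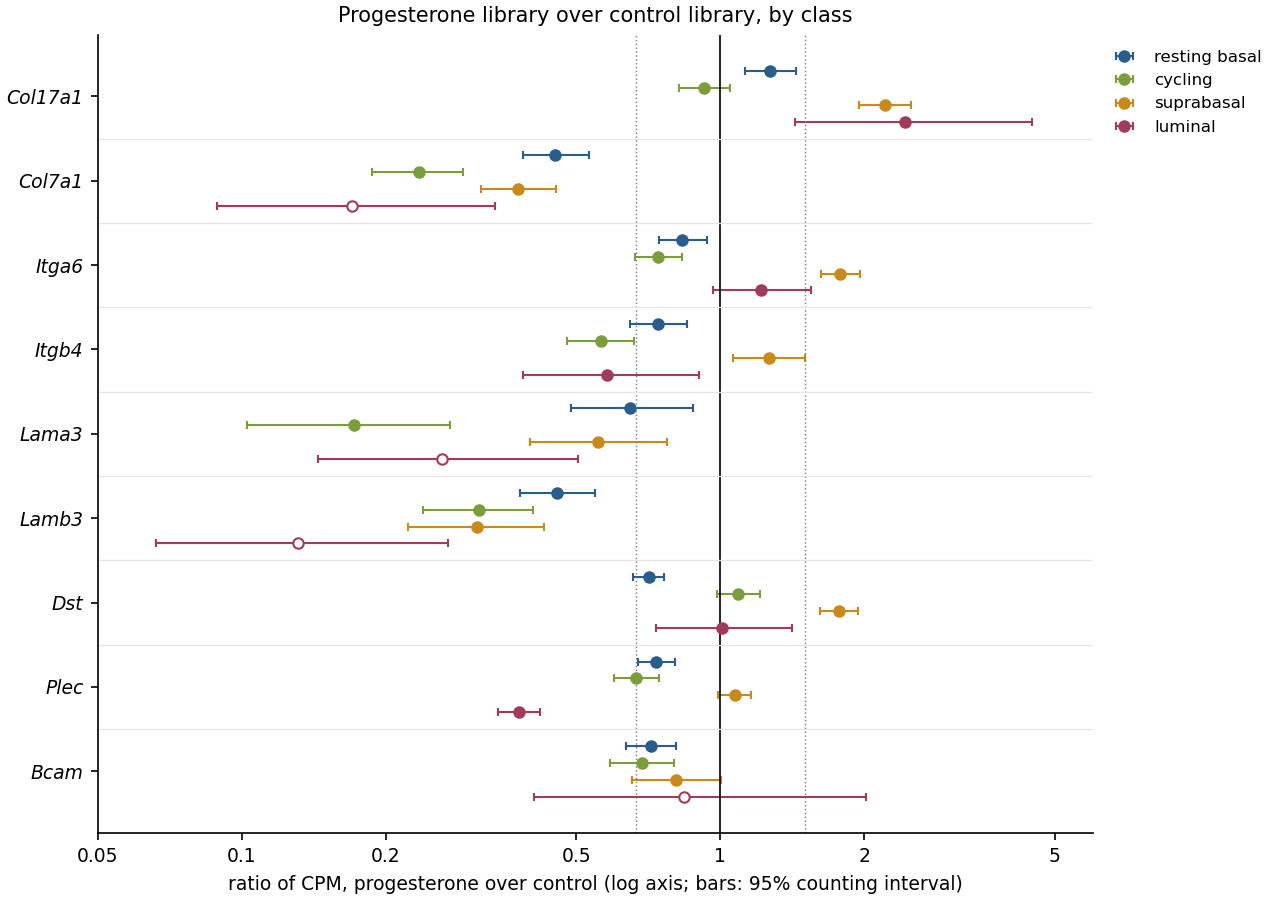
Ratio of CPM, progesterone over control, for each gene in resting basal (blue), cycling (green), suprabasal (ochre) and luminal (red) cells, on a log axis with 95% counting intervals; dotted lines mark 1.5-fold, and open points have under 100 UMIs. Col7a1, Lama3 and Lamb3 lie left of 1 in all 4 classes, and Col17a1, Itga6 and Dst lie right of 1.5 in suprabasal cells.

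Because classes mix clusters, the comparison was repeated in the 4 clusters with at least 50 cells of each library. Cluster 0 (293 control and 2253 progesterone cells) and cluster 4 (242 and 674) are both resting basal. Col7a1 stood at 0.43 [0.36 to 0.53] in cluster 0 and 0.43 [0.32 to 0.58] in cluster 4. Lamb3 stood at 0.47 [0.38 to 0.59] and 0.28 [0.20 to 0.40]. In cluster 4 Itgb4 at 0.63, Dst at 0.64 and Bcam at 0.55 were also lower, which made 5 of 8 genes compared, where 13% of all genes were lower. In cluster 0 the count was 2 of 9, where 14.9% of all genes were lower. Bcam was lower in suprabasal cluster 1 too, at 0.38 [0.27 to 0.55]. Col7a1 was the single gene past 1.5-fold in the same direction in each of these 4 clusters with 100 UMIs.

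**Figure D4:**
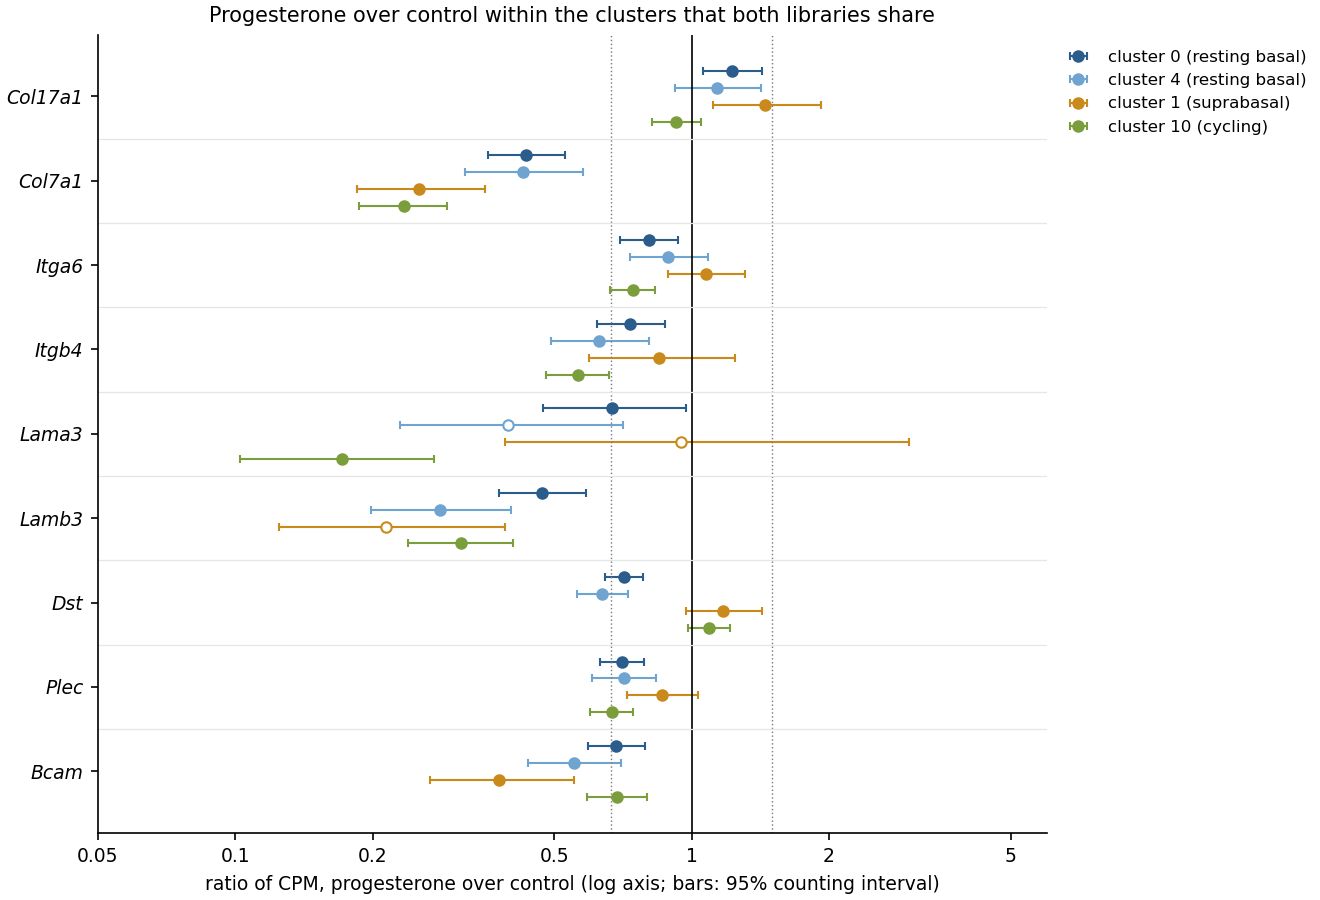
Ratio of CPM, progesterone over control, for each gene within clusters 0 and 4 (resting basal), 1 (suprabasal) and 10 (cycling), on a log axis with 95% counting intervals; dotted lines mark 1.5-fold, and open points have under 100 UMIs. Col7a1 and Lamb3 lie left of the lower dotted line in every cluster shown, and Col17a1 lies between 0.93 and 1.45.

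Many control cells of squamous kind had no name, so their levels are given by cluster. Cluster 11, with 489 control and 16 progesterone cells, scored as basal and as cycling almost alike, and Col7a1 was among its 10 leading genes although that gene was left out of the clustering. Its control cells had 382 CPM of Col17a1, 274 of Col7a1, 452 of Itga6, 241 of Itgb4, 80.6 of Lama3, 160 of Lamb3, 478 of Dst, 525 of Plec and 207 of Bcam. These are above the control resting basal levels for 6 genes and below them for Dst and Bcam, with Plec at the same level. Of the 6, Itgb4 and Lamb3 differed least from resting basal cells, at 241 against 227 CPM and 160 against 141 CPM. Counted as resting basal, cluster 11 moved the log2 ratio of Col17a1 from 0.34 to -0.00, that of Itga6 from -0.27 to -0.65 and that of Col7a1 from -1.15 to -1.61. The direction for Col17a1 in basal cells thus depends on where these cells are placed, and that for Col7a1 does not. Cluster 7 (702 control cells, led by Sprr2f) had 79.7 CPM of Col17a1, 62.3 of Col7a1, 275 of Itga6 and 28.7 of Lamb3. Cluster 8 (691 control cells, led by Sprr2d) had 17.8, 9.7, 136 and 1.4 CPM of the same genes, the lowest Lamb3 level among them.

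Over the 8 sums of class and library, several pairs of the 9 genes followed each other closely. Bcam and Itgb4 had a Pearson r of 0.98, Dst and Col17a1 0.95, Itga6 and Col17a1 0.95, and Lamb3 and Col7a1 0.95. Plec stood apart, with an r from -0.04 with Col17a1 to 0.67 with Lama3. The sums of a library share its mice, free RNA and depth, so these are descriptions. Of 10763 genes outside all lists, those most like the mean of the 9 were Chsy1 (r = 0.99), which lengthens chondroitin sulfate chains and reached 9.8 CPM at most, Vsnl1 (0.98), Mtss1l (0.98), Asap1 (0.98) and Efnb1 (0.97), an ephrin ligand. Vsnl1, a calcium sensor, went from 77.4 CPM in control resting basal cells to 1.6 CPM in progesterone luminal cells.

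Other genes of the attachment were read from 5 lists, along with single partners of the hemidesmosome. In resting basal cells, progesterone over control, 3 of 4 other laminins compared were lower (median log2 -0.92, against -0.15 over all genes), where 13.5% of all genes were lower and 8.81% higher. They include Lamb2 at 0.49 [0.36 to 0.69] and Lama5, which encodes the chain that Bcam binds, at 0.55 [0.41 to 0.76]. Of 10 scaffold genes 3 were lower and 1 higher (median -0.38). Col18a1 stood at 0.65 [0.52 to 0.81] and Hspg2, the core of perlecan, at 0.63 [0.45 to 0.92], whereas Smoc2, a secreted calcium-binding matrix protein, stood at 4.54 [2.45 to 9.52] from 10 control UMIs. Of 9 other matrix receptors 4 were lower and none higher (median -0.56), with Itgb5 at 0.59 and Itgb6 at 0.48. Of 10 focal adhesion linkers 2 were lower and 1 higher (median -0.31), with Parva at 0.51, Ilk at 0.65 and Fermt2 higher on 2 control UMIs, at a ratio of 4.41 [1.19 to 36.9]. Of 9 assembly and release enzymes 1 was lower, Bmp1 at 0.59, which processes laminin-332 and procollagen VII, and 2 were higher (median -0.27). These were Serpinh1, the collagen chaperone, at 1.65 [1.23 to 2.26] and P4ha1, which had 2 control UMIs.

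Suprabasal cells were then compared with resting basal cells. Of all genes 29% were lower and 18.5% higher in the control, and 11.8% were lower and 8.62% higher with progesterone. Of 10 scaffold genes in the progesterone library 9 were lower (median -2.67, against -0.01), Sparc at 0.05 [0.04 to 0.06] and Smoc2 at 0.05 [0.03 to 0.08]. In the control all 3 scaffold genes compared were lower, Agrn at 0.08 [0.05 to 0.12] and Sparc at 0.24 [0.19 to 0.29]. Among the partners, Fermt1, the kindlin that activates integrins in epithelia, was at 0.28 in the control and 0.62 with progesterone. Itga3, the other laminin-332 integrin, was at 0.14 [0.11 to 0.19] with progesterone, and Cd44, a hyaluronan receptor, was higher at 2.22 [1.73 to 2.89] in the control. Other laminins were lower in 3 of 4 with progesterone, Lamb1 at 0.26 and Lama5 at 0.37. Matrix receptors split, 4 of 7 lower and 1 higher in the control and 2 lower and 2 higher of 9 with progesterone. The syndecan Sdc1 was higher in both libraries, at 1.78 and 1.73, and Sdc4 with progesterone at 1.69. Linkers were lower in 5 of 6 in the control, with Utrn at 0.24 and Tln1 at 0.32, and in 5 of 10 with progesterone. Enzymes were lower in 3 of 5 in the control, with Mmp14 at 0.28, and with progesterone 4 of 10 were lower and 2 higher, Timp3, an inhibitor of matrix proteases, at 5.24 [4.72 to 5.83].

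Outside the epithelium, endothelial-like cells (45 control and 61 progesterone cells) had the receptor side of the set without the collagens. Itgb4 was 245 CPM in the control and 240 with progesterone, Bcam 447 and 401, Dst 504 and 430, Plec 634 and 575, and Itga6 231 and 175. With progesterone Bcam at 401 [302 to 521] and Plec at 575 [456 to 717] lay above the 212 and 386 CPM of resting basal cells, and the intervals of Itga6, Itgb4 and Dst overlapped those of resting basal cells. These endothelial-like cells were shallower, with a median of 2051 UMIs. Per cell, Plec was 1.30 [1.03 to 1.61] there and 1.75 [1.70 to 1.80] in resting basal cells. Bcam was 0.90 [0.68 to 1.17] and 0.96 [0.93 to 1.00], so the higher levels hold in CPM and not per cell. Col17a1 was 43.2 and 43.7 CPM on 3 and 6 UMIs, and Col7a1 had 1 UMI in the control and 0 with progesterone, with an upper bound of 26.9 CPM. Fibroblast-like cells had Dst at 223 and 221 CPM and Plec at 424 and 237 CPM. Neutrophil-like cells had 60.0 CPM of Lamb3 with progesterone, from 24 UMIs, close to the 64.2 CPM of resting basal cells, whereas Lama3 had 0. That closeness is in CPM alone. Per cell, resting basal cells of that library had 0.29 [0.27 to 0.31] UMIs of Lamb3 and neutrophil-like cells 0.054 [0.035 to 0.080]. Suprabasal cells had 0.056 [0.043 to 0.071] and luminal cells 0.013 [0.0082 to 0.019]. The luminal value lay below that of neutrophil-like cells, so these do not set a common background for Lamb3. Macrophage-like cells of the progesterone library had 190 CPM of Col17a1 with 3844 CPM of Krt14, against 12.4 and 749 CPM in the control, and were not read as expressing these genes.

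**Figure D5:**
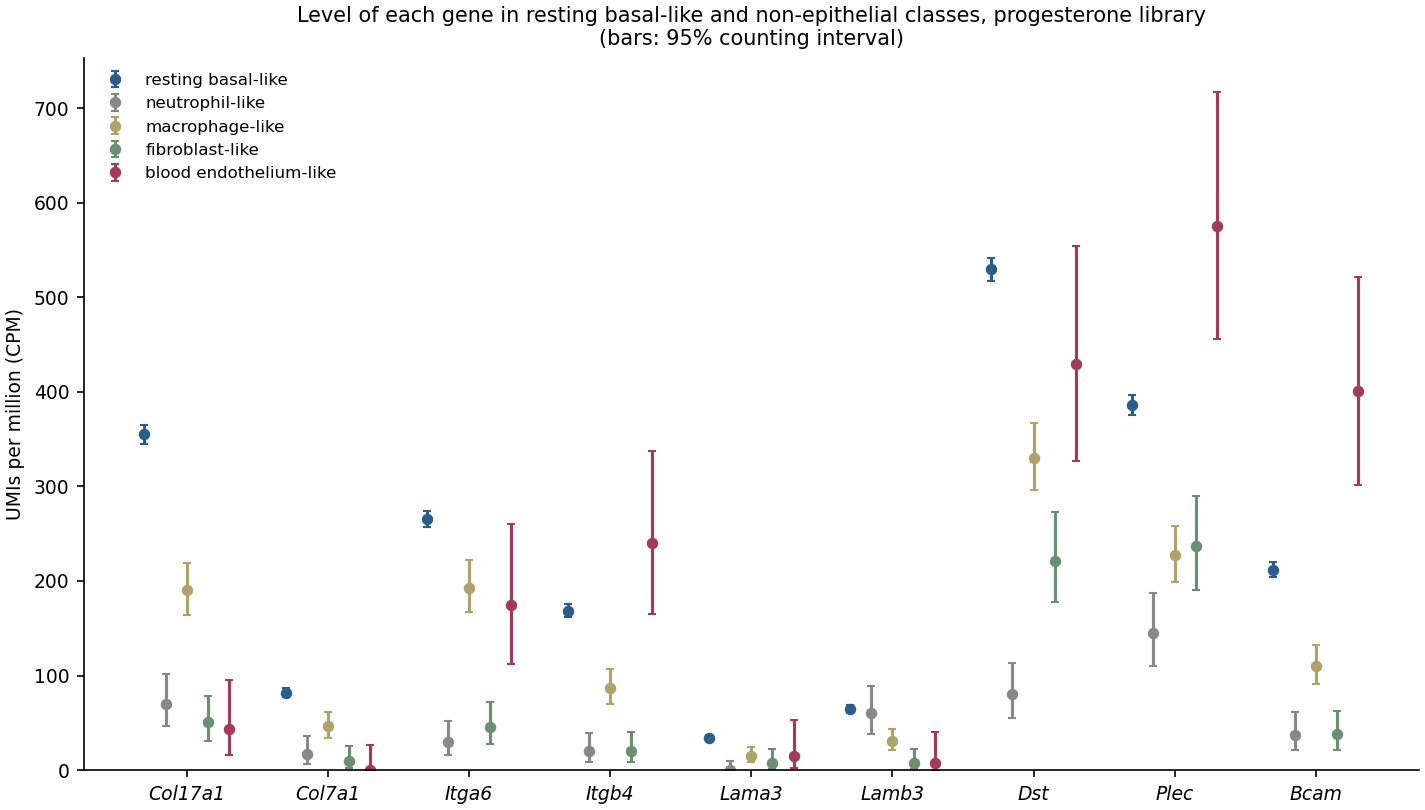
Level of each gene in CPM in resting basal-like (blue), neutrophil-like (grey), macrophage-like (tan), fibroblast-like (green) and blood endothelium-like (red) cells of the progesterone library, with 95% counting intervals. In CPM, endothelial-like cells match or exceed resting basal cells for Itgb4, Plec and Bcam, and Lamb3 in neutrophil-like cells overlaps resting basal cells. In UMIs per cell, Plec was lower in endothelial-like cells and Lamb3 lower in neutrophil-like cells than in resting basal cells.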

How the data were processed

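Cervix cells of 2 libraries, 1 per group with 9 mice pooled in each, were read with the 10x Genomics 3′ kit after release with a cold protease and EDTA, per the labels' protocols. Grouping followed the sample titles and treatments in the labels. The deposited values are raw UMI counts per gene and barcode, made by the authors with Cell Ranger 3.0.2 on mm10, per the submitters' processing notes. Each count comes from the 3′ end of 1 RNA molecule, so it does not grow with transcript length, and levels of different genes are not ranked against each other. Parameters of the alignment are not given in the sources used here. The control library held 5368 barcodes with 21658684 UMIs and the progesterone library 10853 barcodes with 44811069 UMIs, and every barcode had at least 500 UMIs.

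A barcode was kept if it had 200 genes or more and a mitochondrial share of no more than 20%. The cells with the highest Scrublet scores, 181 control and 680 progesterone ones, were left out as doublets. Both libraries were clustered together in scanpy 1.11.5 (10000 counts per cell, log scale, 2000 variable genes, 30 principal components, 15 neighbours, leidenalg 0.10.2 at resolution 1, seed 1), without the 9 genes, 78 pathway genes and mitochondrial genes. Clusters were named from marker lists of 18 cell types by the mean log2 excess of their markers (at least 0.75, a lead of 0.5 and 3 detected markers). Clusters of a non-epithelial type stayed unnamed with at least 2000 CPM of Krt5, or with no marker of their own type among the 10 leading genes. So did any cluster with more markers of another type than of its own there, and shallow clusters with none of their own. For each class in each library the UMIs of all cells were added up and divided by their total (CPM). A ratio counts as higher or lower at 1.5-fold with at least 100 UMIs in both sums together. A log2 ratio had 0.5 added to both counts. Intervals are exact Poisson for levels, Clopper-Pearson for shares and conditional binomial for ratios, and the ratio step was tested on simulated data. Named genes were the 9 members, Cd151, the 2 furthest in each direction of each pathway list, and the 5 genes most like the mean of the members. Levels of unnamed clusters and of other cell types were singled out after their values were seen. A gene of the list of hemidesmosome partners is not reported here, nor are counts over that list. The 9 genes, lists and naming thresholds were chosen with earlier results of these data known. Alternatives in cell filter, clustering, naming, scaling, thinning, fold and UMI minimum were tried.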

Additional observations from a re-analysis of the deposited data

Results flagged for a closer look

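Ratios of progesterone over control lay on opposite sides of 1 in different classes for 3 genes, with intervals that exclude 1, and the difference between classes was not tested. Itga6 stood at 1.78 in suprabasal cells, 0.833 in resting basal cells and 0.743 in cycling cells. Itgb4 stood at 1.26 in suprabasal cells, 0.742 in resting basal cells, 0.563 in cycling cells and 0.580 in luminal cells. Dst stood at 1.77 in suprabasal cells and 0.708 in resting basal cells. Within suprabasal cluster 1, which both libraries share, the ratios were 1.07 for Itga6, 0.85 for Itgb4 and 1.17 for Dst.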

How the results depend on the processing

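Col7a1, Lama3 and Lamb3 kept a ratio below 1 with progesterone in resting basal, cycling and suprabasal cells under every setting tried but 1, and Col17a1 a ratio above 1 in suprabasal and luminal cells. The log2 ratio of Lama3 in resting basal cells came to -0.07 under the stricter cell filter, and a second draw of the thinning, which the shares of cells used, gave 28.9 CPM in the control and 37.9 CPM with progesterone. Among ratios of single genes, 880 of 1197 alternative values moved by less than their counting interval and 317 moved further. Within those 1197 values no ratio past 1.5-fold changed direction. The second draw of the thinning is not among them, and there Lama3 in resting basal cells did change direction. In resting basal cells the log2 ratio of Dst reached 0.25 with per-cell gates, that of Bcam 0.18 and that of Itgb4 0.10 at resolution 2.

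Lower genes in resting basal cells with progesterone numbered 3, but 1 at resolution 2, with at least 500 genes and 10% mitochondrial UMIs, and with per-cell gates. In suprabasal cells they numbered 3, but 1 under that filter, with all genes used for clustering, and at equal depth of 2000 UMIs. Higher ones there numbered 3, but 1 at 2-fold and 0 in clusters both libraries share. In luminal cells lower ones numbered 2, but 1 with doublets kept, with gates, at 2-fold and at equal depth, 0 with libraries clustered apart and 5 with at least 20 UMIs. Luminal over resting basal control cells gave 7, but 3 at equal depth. Cycling over resting basal control cells gave 1, but 0 at resolution 2, under the stricter filter, clustered apart, with gates and at equal depth, and 2 at resolution 0.5 and without the most abundant genes. With progesterone it gave 3, but 5 at resolution 2, 8 at resolution 0.5 and under the stricter filter, 6 without the most abundant genes, 7 as a mean over cells, and 1 at 2-fold and at equal depth. The cause was not tested. Equal depth, shared clusters and the placing of clusters 7, 8 and 11 were chosen after seeing the data.

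Totals without mitochondrial, ribosomal and the 20 most abundant genes moved the median of all genes by 0.10 to 0.21 log2 between libraries and by -0.39 to -0.05 between layers. No paired analysis was possible because each group is 1 library. Control resting basal and luminal cells, with 1020182 and 771764 UMIs, limit the precision.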
